A study of Sus scrofa with 21 samples.

Results

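The genes described here build cholesterol, sense it and move it in cells: 17 enzymes of the pathway from acetyl-CoA to cholesterol, 5 genes of its control and 9 genes of cholesterol transport. They were chosen by symbol from a list of 32 genes of cholesterol synthesis and of targets of the transcription factor SREBP2. Of these, 31 were measured among 18661 genes, PMVK is not analysed here, and all 31 passed the filter on low counts. The RNA came from the distal part of the small intestine of 21 piglets (Danish Landrace/Yorkshire) aged 24 to 25 days, and was sequenced. The control piglets (n = 10) received milk replacer alone, and the starch piglets (n = 11) the same replacer to which wheat had been added. Both diets thus shared the milk base, and the labels name no drug or genetic change and give no litter, sex or batch. Each library came from 1 piglet, so the spread reported is between animals.

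Cells make cholesterol from acetyl-CoA through mevalonate, farnesyl diphosphate, squalene and lanosterol. When sterol in the endoplasmic reticulum is low, SCAP carries SREBP2 to the Golgi, where it is cut and released to switch on the genes of the pathway; when sterol is plentiful, the INSIG proteins hold SCAP back. The absorptive enterocyte of the small intestine also takes cholesterol from the lumen through NPC1L1, esterifies it with SOAT2 for export in chylomicrons, and returns sterols to the lumen through ABCG5 and ABCG8.

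Total expected counts (the authors' estimated read counts) lay between 6719264 and 8610458 per piglet, and 13127 genes were tested. The epithelial marker list was present in every library, at a summed 3099 to 8462 CPM (read counts scaled to library size). Control 5, control 8 and starch 3 stood apart: the 14 measured of 17 absorptive enterocyte markers summed to 521.9, 483.6 and 440.3 CPM there and to between 8715 and 42940 CPM in the other 18 piglets, with 1 marker at 0 in at least 1 piglet. Their macrophage lists (all 10 markers measured) summed to 2431, 2491 and 3435 CPM, against 371.0 to 1575 CPM in the 18. Smooth muscle (9 of 10 markers) summed to 21980, 38570 and 24610 CPM against 6425 to 22170 CPM, and cell division genes (9 of 12) to 1028, 1133 and 1011 CPM against 251.6 to 1078 CPM. Goblet cell markers (6 of 8) summed to 2220, 3696 and 1622 CPM, against 428.6 to 1630 CPM. In bulk tissue, fewer cells of a type and less RNA per cell cannot be told apart.

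The genes were far from equally abundant. On the length-scaled FPKM scale, the median level over the 21 piglets was highest for NPC2, the soluble lysosomal carrier of cholesterol, at 272.4 FPKM. FDPS, which makes farnesyl diphosphate, followed at 99.32 FPKM, and close to it stood IDI1 (isopentenyl diphosphate isomerase) at 93.38, FDFT1 (squalene synthase) at 93.32 and CYP51A1 (lanosterol 14-alpha-demethylase) at 91.57 FPKM. The range over piglets was 63.67 to 195.4 FPKM for FDPS and 48.89 to 189.5 FPKM for CYP51A1, so the order of these neighbours lay within their spread. The lowest levels were those of TM7SF2, a sterol C14 reductase, at 7.5 FPKM and of ABCA1, which passes cellular cholesterol to apolipoprotein A-I, at 3.23 FPKM. FPKM rests here on coding lengths.

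The genes also differed in how steady they were. SCAP had the smallest coefficient of variation in CPM over the 21 piglets, 9.99%, followed by SREBF2, which encodes SREBP2 itself, at 12.6% and TMEM97, a sterol-binding membrane protein that interacts with NPC1, at 15.1%. The enzymes ranged from 25.3% for LSS (lanosterol synthase) to 52.5% for IDI1. STARD4, a small cytosolic sterol carrier, varied most, at 62.2%, followed by ABCG5 at 55.2% and ABCG8 at 54.5%. This order was set in part by the 3 piglets: in the other 18, ABCG5 had 34.4%, ABCG8 33.3% and STARD4 52.9%, and IDI1 was highest at 53.9%.

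**Figure D1:**
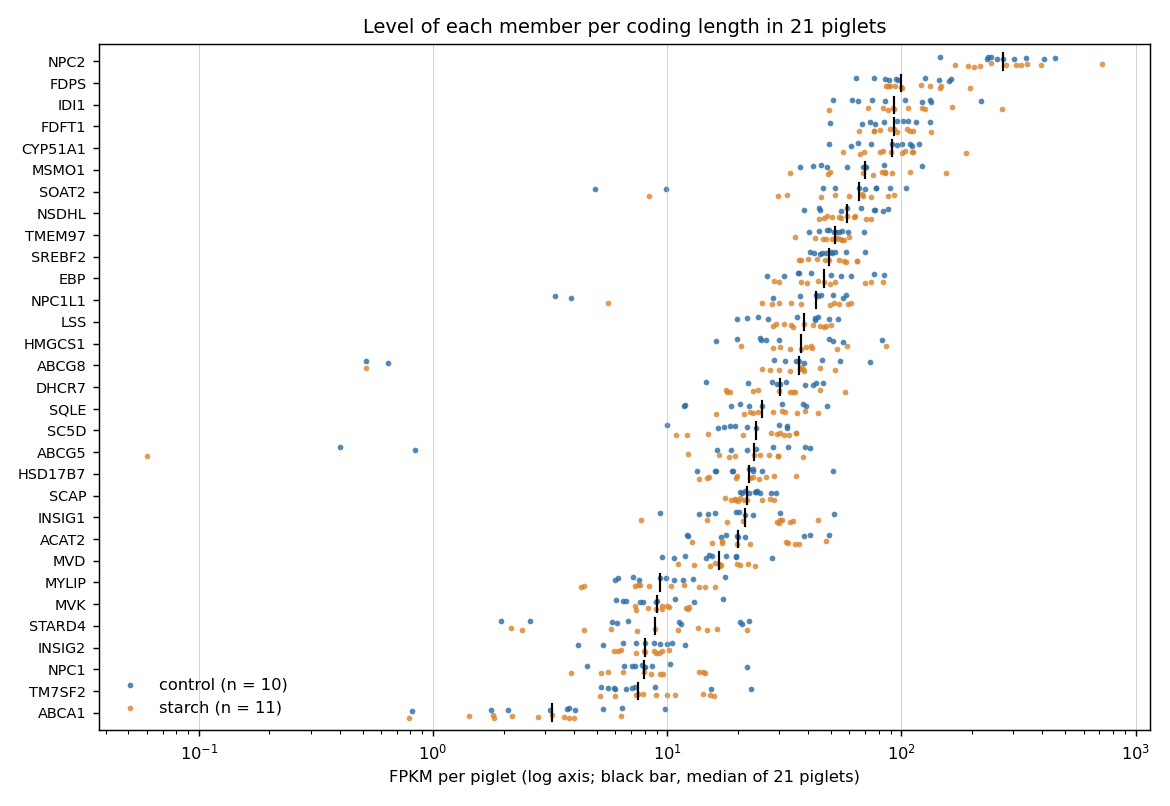
Level of each of the 31 genes in every piglet, in FPKM on a log axis; each point is 1 piglet, coloured by diet, a black bar marks the median of 21 piglets, and genes are ordered by that median. Control and starch points overlap for all 31 genes, and ABCG5 and ABCG8 hold the piglets farthest below the rest.

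Diet was compared first. None of the 31 genes differed between the diets (edgeR quasi-likelihood test, Benjamini-Hochberg adjusted over 13127 genes, adjusted p = 0.9998 for each), and 0.0% of all genes tested did. At an unadjusted p under 0.05 the count was 0 of 31, beside 174 (1.33%) of all genes. DESeq2, run without the count filter, and limma-voom with sample quality weights also found 0 genes after adjustment, with 293 of 18630 and 268 of 13127 genes at an unadjusted p under 0.05. Of the 31, 19 (61.3%) had a log2 fold change (starch minus control) above 0, beside 51.1% of all genes tested, and the median was 0.08 beside 0.00 for all genes. The ranges of the 2 diets overlapped for all 31 genes. The share of all genes whose ranges overlapped is not given, so this is a description only.

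Cell marker lists were read in the same fit, and 0 of their genes passed the adjusted threshold. Log2 fold changes were above 0 for 9 of 9 cell division genes (median 0.27), 8 of 9 smooth muscle genes (0.08), 5 of 9 epithelial genes (0.05), 5 of 14 enterocyte genes (-0.04), 4 of 10 macrophage genes (-0.02) and 0 of 6 goblet cell genes (-0.57, 3 of them at an unadjusted edgeR p under 0.05). Among tested genes of other cells they were above 0 for 5 of 5 B cell genes (1.6, 2 of them at an unadjusted p under 0.05), 0 of 6 T cell genes (-0.09), 2 of 5 genes of enteric neurons and glia (-0.01) and 2 of 3 adipocyte genes (0.08). The B cell list was highest in starch 9 (summed 464.8 CPM) and starch 10 (661.4 CPM), and its median sum was 17.5 CPM with starch and 23.5 CPM in controls. With the enterocyte score or the smooth muscle score as a covariate, 0 of the 31 cholesterol genes passed the adjusted threshold, and the part of the other lists in their values was not tested.

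The enzymes from acetyl-CoA to farnesyl diphosphate gave values between 0.07 and 0.25 on the log2 scale, all 6 above 0. HMGCS1, which makes HMG-CoA, ranged from 24.0 through a median of 43.7 to 99.9 CPM in the control piglets and from 34.9 through 58.7 to 139.3 CPM in the starch piglets. Its log2 fold change was 0.25 (SE 0.25, 95% interval -0.27 to 0.76), the largest of the 6. The lowest piglet was control 4 and the highest starch 4, and the value was 0.07 without starch 4 and 0.49 without the 3 piglets named above (edgeR, unadjusted p = 0.0507). ACAT2, which joins acetyl-CoA units, had 0.15, MVK (mevalonate kinase) 0.07, MVD (mevalonate diphosphate decarboxylase) 0.14, IDI1 0.19 and FDPS 0.14. Without starch 4, IDI1 had -0.04 and FDPS 0.03.

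From squalene to cholesterol, 8 of 11 enzymes had values above 0, with a median of 0.16. MSMO1, the sterol C4-methyl oxidase, had the largest value among the 31 genes. It measured 30.3, 47.7 and 95.3 CPM (lowest, median, highest) in control piglets and 30.8, 65.6 and 137.8 CPM in starch piglets. Its log2 fold change was 0.36 (SE 0.24, 95% interval -0.14 to 0.86; edgeR unadjusted p = 0.150), and starch 4 and starch 6 were highest while the lowest values of the 2 diets nearly coincided. Without starch 4 the value was 0.20. SC5D, the lathosterol desaturase, ran from 8.34 through 18.3 to 25.9 CPM in controls and from 10.8 through 25.1 to 32.3 CPM in those given starch. Its log2 difference was 0.26 (95% interval -0.18 to 0.70). LSS had 0.20, CYP51A1 and TM7SF2 0.19, SQLE (squalene epoxidase, an early rate-limiting step) 0.16, FDFT1 0.12 and EBP (sterol isomerase) 0.05. The enzymes below 0 were NSDHL (sterol C4 decarboxylase) at -0.12, DHCR7, which makes cholesterol from its last precursor, at -0.04, and HSD17B7 (a 3-keto reductase) at -0.01.

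The enzymes varied together across piglets, as described below, so their signs are not separate results. Over all 17 enzymes, 14 (82.4%) had values above 0, beside 51.1% of all genes tested. Their median was 0.15, beside 0.00 for all genes, with none past the test. Starch 4 bore on this: without it 12 of 17 were above 0 and the median was 0.05, with CYP51A1 at 0.03. The highest median over the alternatives was 0.26, with limma-voom. TM7SF2 moved with the piglets included. Its level was 14.8, 28.3 and 17.3 CPM in control 5, control 8 and starch 3 and 6.19 to 22.3 CPM in the other 18, and without those 3 its log2 fold change was 0.56 (edgeR unadjusted p = 0.0212, not past the adjusted threshold) against 0.19 with them.

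**Figure D2:**
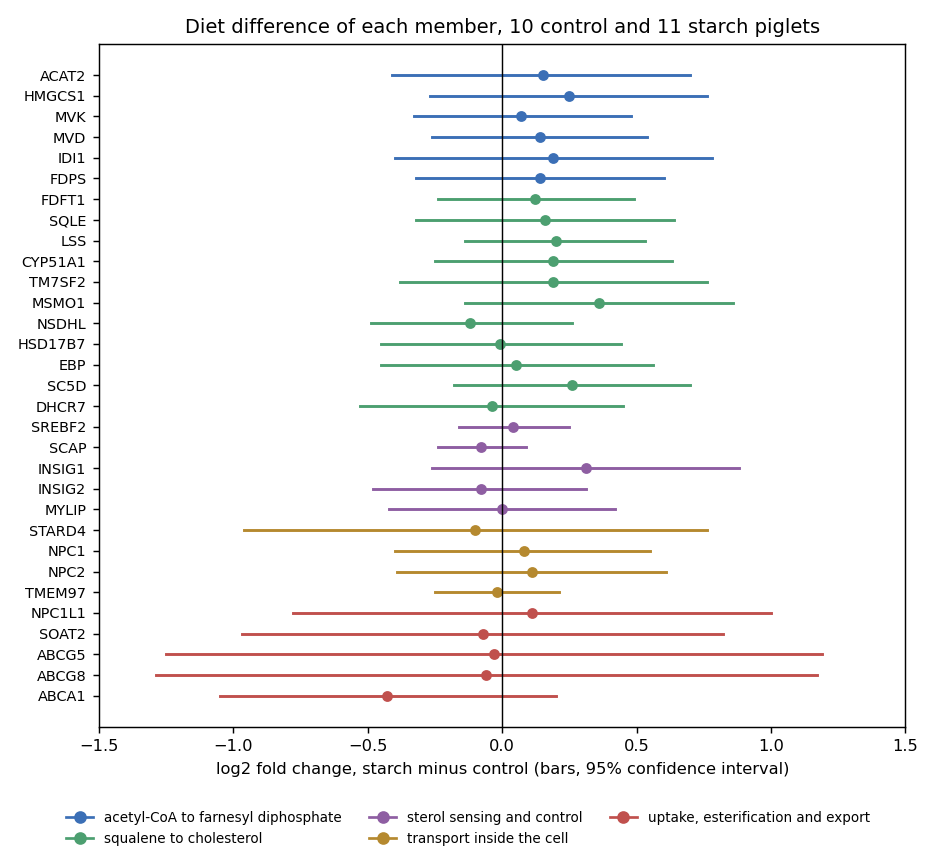
Log2 fold change of each gene, starch minus control, with bars for the 95% confidence interval of the edgeR fit on 10 control and 11 starch piglets, coloured by role. All 31 intervals include 0, 14 of the 17 enzyme points lie right of 0, and the widest intervals belong to ABCG5 and ABCG8.

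Among the control genes, SREBF2 stood at 163.9 ± 19.8 CPM (SD, n = 10) with the control diet and at 168.9 ± 22.6 CPM (SD, n = 11) with starch, and its log2 difference was 0.04 (95% interval -0.16 to 0.25). SCAP had -0.08 (95% interval -0.24 to 0.09). These were the narrowest intervals of the group together with that of TMEM97. INSIG1, itself a target of SREBP2, ran from 7.17 through 14.0 to 39.2 CPM in controls and from 7.12 through 22.2 to 34.1 CPM in starch piglets. Its log2 fold change was 0.31 (SE 0.27, 95% interval -0.26 to 0.88), and the highest piglet was control 10. Without control 10 the value was 0.53 (edgeR unadjusted p = 0.0428), and MSMO1 gave 0.49 (unadjusted p = 0.0489) there, neither past the adjusted threshold. INSIG2, which is not driven by SREBP2 in the same way, had -0.08, and MYLIP, a ubiquitin ligase induced by the sterol receptor LXR, had 0.00.

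Of the transport genes, ABCA1, an LXR target, had the lowest value among the 31. It ran from 6.33 through 24.7 to 53.1 CPM in controls and from 6.31 through 20.3 to 36.3 CPM in those given starch. Its log2 difference was -0.43 (SE 0.30, 95% interval -1.05 to 0.20; edgeR unadjusted p = 0.173). The lowest piglets of both diets were level, and the highest was control 5, without which the value was -0.24. With the replicate number as a block it was -0.23. Inside the cell, NPC1 (the lysosomal membrane partner of NPC2) had 0.08, NPC2 0.11, STARD4 -0.10 and TMEM97 -0.02. At the brush border and after uptake, NPC1L1 had 0.11 (95% interval -0.78 to 1.00), SOAT2 -0.07 (-0.97 to 0.82), ABCG5 -0.03 (-1.25 to 1.19) and ABCG8 -0.06 (-1.29 to 1.17). These were the widest intervals of the 31. With the 3 piglets of few enterocyte transcripts left out, the 4 values were -0.06, -0.24, -0.21 and -0.24.

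Other genes of lipid synthesis were compared by diet in the same fit. In a list of 17 genes of SREBP1 and fatty acid synthesis, 16 were measured and 14 tested, with 8 log2 fold changes above 0, 6 below, a median of 0.01 and 0 past the adjusted threshold. ME1, which supplies NADPH, stood at 4.22 ± 3.42 CPM (SD, n = 10) with the control diet and at 2.46 ± 0.85 CPM (SD, n = 11) with starch, giving -0.78 (edgeR unadjusted p = 0.0212, adjusted p = 0.9998). MID1IP1, an activator of acetyl-CoA carboxylase, had -0.30, and ACSL3, a long-chain acyl-CoA synthetase, -0.49. A list of 32 further sterol and isoprenoid genes had 30 measured and tested, 18 above 0 and 12 below, a median of 0.02 and 0 past the threshold. ERG28, a scaffold of the sterol C4-demethylation enzymes, had -0.29 (edgeR unadjusted p = 0.0318, adjusted p = 0.9998), NFYC, a subunit of the factor NF-Y, 0.16, and LBR, a second sterol C14 reductase, 0.36.

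Single piglets differed by more than the diet medians. A synthesis score, the mean over the 17 enzymes of log2 CPM centred on the 21 piglets, ran from -0.64 through a median of -0.10 to 0.66 in the controls and from -0.40 through 0.10 to 0.82 in the starch piglets. Starch 4 had the highest score, 0.82, lay above the median of all piglets for 17 of 17 enzymes and was the highest piglet for 9 of them. Control 8 followed with 0.66 and was highest for 6. Control 1, at -0.64, was lowest for 7 enzymes, and control 4, at -0.54, for 5. IDI1 shows the span: 40.9 CPM in control 1, 182.2 CPM in control 8 and 234.0 CPM in starch 4.

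Both piglets at the top also stood high in some cell lists. Starch 4 ranked highest of the 21 for the epithelial list (8462 CPM) and the adipocyte list (103.8 CPM). It ranked 2 of 21 for cell division genes (1078 CPM) and 3 of 21 for smooth muscle (22170 CPM), and had the lowest enterocyte sum of the 18 (8715 CPM). Control 8 ranked highest for cell division (1133 CPM), smooth muscle (38570 CPM), goblet cells (3696 CPM) and enteric neurons and glia (116.5 CPM). It ranked 2 of 21 for the epithelial list (8019 CPM) and for macrophages (2491 CPM). Both stood low in the other lipid lists: of 21 piglets, starch 4 ranked 17 and control 8 ranked 21 for the summed CPM of the further sterol and isoprenoid genes, and likewise 17 and 21 for that of the SREBP1 and fatty acid genes. Control 5 and starch 3, which like control 8 had few enterocyte transcripts, ranked 19 and 20 in the first list and 16 and 18 in the second. Such sums are led by abundant genes. The part of these cell lists in the enzyme levels was not tested.

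**Figure D3:**
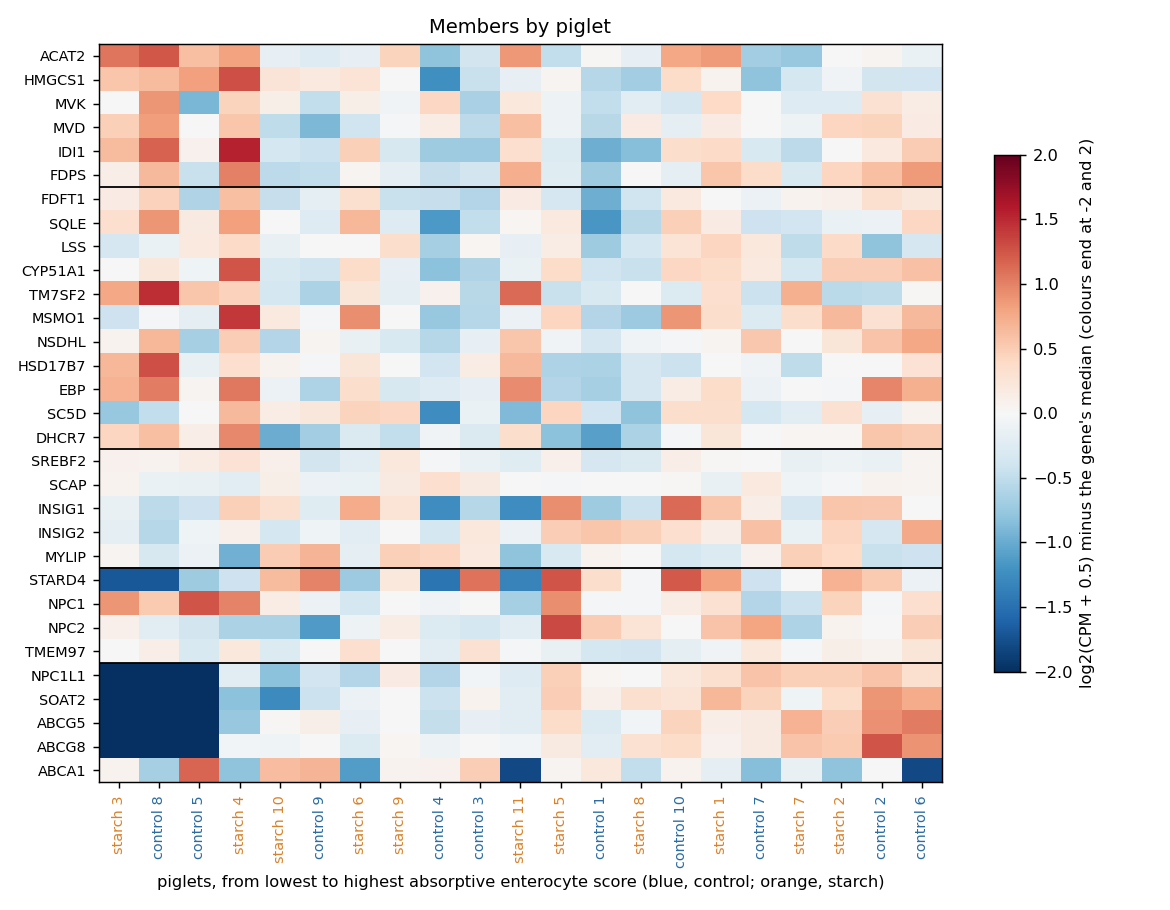
Log2(CPM + 0.5) of the 31 genes minus each gene's median over the 21 piglets; rows are genes in blocks by role, columns are piglets from the lowest to the highest absorptive enterocyte score (label colour, diet), and the colours end at -2 and 2. Starch 4 and control 8 are high across most enzyme rows, and control 5, control 8 and starch 3 are low in the rows of NPC1L1, SOAT2, ABCG5 and ABCG8.

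The enzymes varied together across piglets. Over the 136 pairs of enzymes the median Pearson r of log2 CPM was 0.54 in 21 piglets, with 126 pairs above 0, and 0.50 in the 18, with 131 above 0; the median over all pairs of tested genes was 0.00 in both. These correlations are a description, since the pairs share libraries and cell makeup. Among the closest pairs in the 18 were SQLE with MSMO1 at 0.89, IDI1 with CYP51A1 at 0.88 and EBP with DHCR7, which act on late sterols, at 0.88. LSS and SC5D were the least tied to the rest, with median r of 0.27 and 0.26 with the other 16 enzymes. Opposite in sign were FDPS with ABCA1 at -0.77 and EBP with MYLIP at -0.76. The enzymes had a median r of 0.10 with NPC1L1, SOAT2, ABCG5 and ABCG8 in the 18, with 44 of 68 pairs above 0. What sets these signs was not tested.

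Taking HMGCS1, an early enzyme of the pathway, as reference, 5 of the 30 other genes passed an adjusted p of 0.05 over 21 piglets (permutation tests of Pearson's r, 2-sided, Benjamini-Hochberg over 13126 genes). Of these, 4 were positive, beside 5.2% of all genes, and 1 was negative, beside 6.48%. SQLE had r = 0.81 (permutation p = 3e-05, adjusted p = 0.00667) and Spearman's rho = 0.81 (permutation p = 3e-05, adjusted p = 0.00679). IDI1 had r = 0.74 (p = 0.00011, adjusted 0.0103) and rho = 0.67 (p = 0.00113, adjusted 0.0211). ACAT2 had r = 0.69 (p = 0.00047, adjusted 0.0164) and rho = 0.61 (p = 0.00424, adjusted 0.0416). NPC1 had r = 0.65 (p = 0.00137, adjusted 0.0253) and rho = 0.59 (p = 0.00543, adjusted 0.0475). SCAP was the negative one, with r = -0.69 (p = 0.00041, adjusted 0.0159) and rho = -0.61 (p = 0.00342, adjusted 0.0373).

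The calls depended on which piglets and which scale were used. Without control 4 and starch 4, the piglets farthest from the HMGCS1 median, r was 0.71 for SQLE, 0.61 for IDI1, 0.63 for ACAT2 and 0.62 for NPC1, all past the adjusted threshold, and -0.47 for SCAP (permutation p = 0.0415, adjusted p = 0.116), which no longer passed. In the 18 piglets, SC5D (r = 0.81, permutation p = 5e-05, adjusted p = 0.0410) and MSMO1 (r = 0.81, p = 7e-05, adjusted p = 0.0459) passed, beside 0.0762% of all genes, while SQLE had 0.80 (adjusted p = 0.0505). By Spearman's rho none passed in the 18 (SC5D 0.83, adjusted p = 0.0656). With starch 4 also left out none passed, at r = 0.82 for SC5D, 0.76 for SQLE and 0.74 for MSMO1. Other enzymes had low values there, such as FDPS at 0.01, DHCR7 at -0.16 and MVD at -0.29. Of the 30 genes, 18 had r above 0, and the median was 0.11, against 0.29 in 21 piglets. Already in the 21 piglets MVK and NSDHL had r = 0.07. Within the 10 control piglets r with HMGCS1 was 0.77 for SQLE, 0.62 for IDI1, 0.86 for ACAT2, 0.73 for NPC1 and -0.90 for SCAP, and within the 11 starch piglets 0.87, 0.87, 0.49, 0.61 and -0.32. In groups of this size 0 of all 13126 genes passed in either diet. On the FPKM scale SCAP had r = -0.09.

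The genes of uptake, esterification and sterol return followed the enterocyte markers. NPC1L1 measured 10.6, 15.9 and 20.9 CPM in control 5, control 8 and starch 3, and 93.6 to 246.0 CPM in the other 18. SOAT2 measured 6.17, 16.0 and 12.3 CPM against 39.6 to 178.3 CPM, and ABCG8 0.896, 1.41 and 1.04 CPM against 59.6 to 172.7 CPM. ABCG5, the partner of ABCG8 in the sterol exporter and its neighbour in the pig genome, measured 0.597, 1.67 and 0.116 CPM against 25.2 to 89.0 CPM. All 3 piglets thus lay below every one of the 18 for each of these 4 genes, and they were set apart by their enterocyte markers, so this is given without a test. The share of all genes that lay so is not given.

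The synthesis enzymes were not uniformly low in those piglets. All 3 were above the median of the 18 for 10 of the 31 genes, 8 of them enzymes, such as HMGCS1 (99.9, 87.7 and 83.1 CPM, with 24.0 to 139.3 CPM in the 18), SQLE (50.7, 83.0 and 56.2 CPM, with 19.6 to 79.1 CPM), IDI1 and DHCR7. The others were SREBF2 and NPC1. For 9 genes none of the 3 was above it. Besides the 4 uptake and export genes these were MSMO1, SC5D, INSIG1, INSIG2 and STARD4. STARD4 measured 2.79, 1.15 and 1.16 CPM in the 3, with 1.46 to 12.3 CPM in the 18. No share over all genes is given beside these counts of 10 and 9, so they are a description only.

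**Figure D4:**
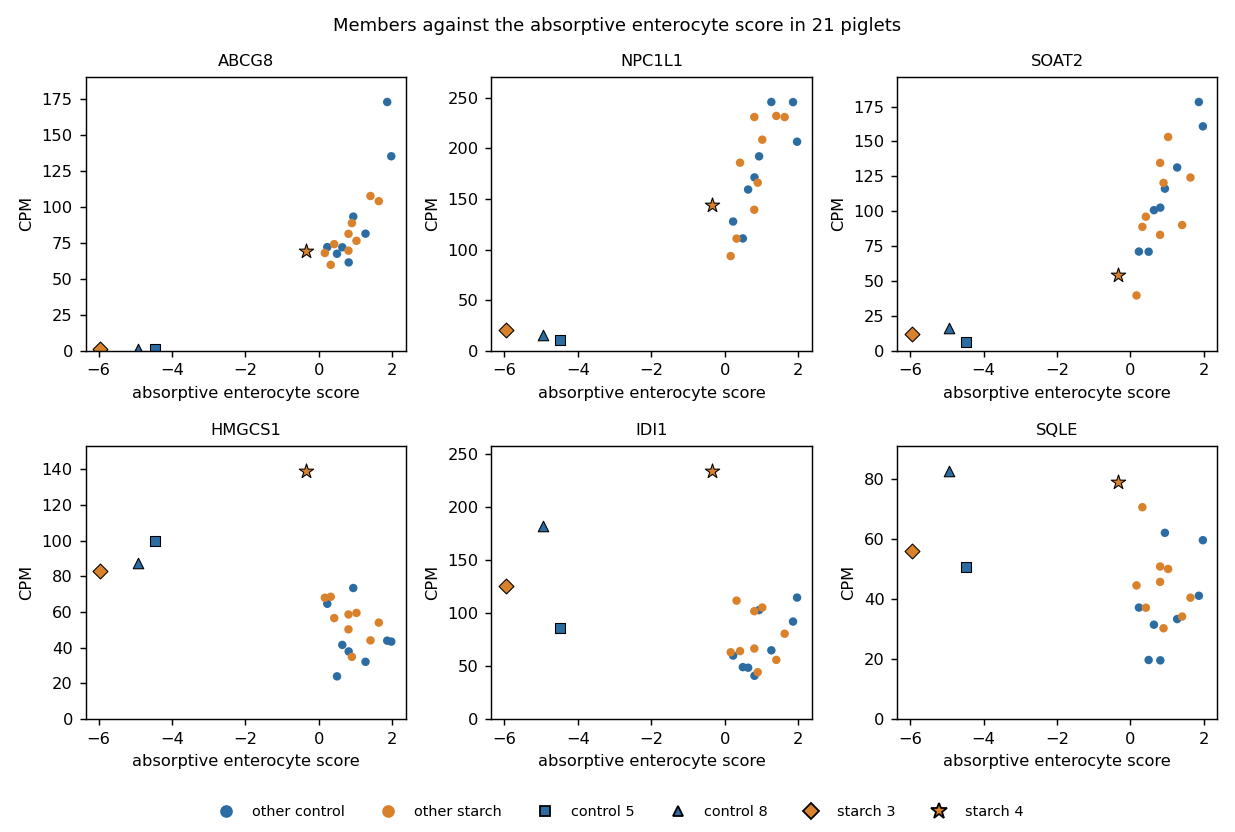
CPM of ABCG8, NPC1L1, SOAT2, HMGCS1, IDI1 and SQLE against the absorptive enterocyte score (mean centred log2 CPM of 14 markers) in 21 piglets; squares, triangles, diamonds and stars mark control 5, control 8, starch 3 and starch 4. The upper row is near 0 in the 3 piglets with scores below -4, and the lower row is not.

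Within the 18 piglets the score, which does not include these genes, was tested against each of the 31. It passed for 4 genes with a positive r, beside 3.73% of all genes, and for 0 with a negative r, beside 2.2% (permutation tests, 2-sided, Benjamini-Hochberg over 13127 genes). ABCG8 had r = 0.83 (permutation p = 1e-05, the smallest the permutations can give, adjusted p = 0.00486) and rho = 0.82 (p = 0.0001, adjusted 0.0119). ABCG5 had r = 0.84 (p = 4e-05, adjusted 0.00719) and rho = 0.75 (p = 0.00054, adjusted 0.0221). SOAT2 had r = 0.80 (p = 6e-05, adjusted 0.00829) and rho = 0.83 (p = 3e-05, adjusted 0.00743), and NPC1L1 r = 0.75 (p = 0.00032, adjusted 0.0181) and rho = 0.82 (p = 6e-05, adjusted 0.00949). HMGCS1 had r = -0.48 (adjusted p = 0.177). Without starch 4 and control 6, the piglets farthest from the median score, r was 0.83 for ABCG8 and for NPC1L1, which still passed, and 0.72 for ABCG5 (adjusted p = 0.0776) and 0.73 for SOAT2 (adjusted p = 0.0663). Within the 8 control piglets r was 0.87 for ABCG8, 0.84 for ABCG5, 0.96 for SOAT2 and 0.83 for NPC1L1. Within the 10 starch piglets it was 0.81, 0.84, 0.68 and 0.71 in that order. In either diet 0 of all 13127 genes passed the adjusted threshold. Some enzymes reached similar values in the 8 control piglets, with FDPS at 0.92, EBP at 0.88 and CYP51A1 at 0.85. Within starch the same enzymes had -0.12, -0.36 and -0.35. The median r over the 31 genes was 0.52 within control and -0.16 within starch, beside -0.02 and -0.01 over all genes. The starch set held starch 4, which had the lowest score of the 18, and the difference between the diets in r was not tested.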

How the data were processed

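Distal small intestine RNA of 21 piglets was measured. The authors deposited, per the file headers, a table per piglet with an expected count (an estimated count, not normalised) and an FPKM value (which the authors had already divided by length and depth) for each transcript. HISAT and DESeq2 were used, per the submitters' processing notes, with no role given; the sources used here do not name the counting program or the genome build. Transcript lengths were multiples of 3 in 99.972% of transcripts.

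Expected counts of 39105 transcripts were summed over 18661 genes (76.5% with a symbol) and rounded. The main test was edgeR 4.0.16 (R 4.3.3, quasi-likelihood, TMM, filterByExpr with minimum count 10 and minimum total 15), adjusted by Benjamini-Hochberg at 0.05 over all genes tested. CPM values use TMM library sizes, and correlations use log2 CPM with a prior count of 2 and 100000 permutations. Their p-values were adjusted over all genes tested, not over the members as first planned. The depth of 6719264 to 8610458 counts per piglet leaves counting error of abundant genes small beside the spread between piglets (common biological coefficient of variation 40.3%), but not for genes with few counts: the lowest piglet had 1 count for ABCG5, 9 for ABCG8, 9 for STARD4 and 21 for INSIG2. The test was checked on simulated counts.

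The members and lists were chosen with earlier results of these data known. All members are named, with up to 3 genes of smallest p from the fatty acid and further sterol lists; marker lists are described by summed CPM. Alternatives were DESeq2 1.42.0, limma 3.58.1 (voom, and log2 FPKM with pseudocounts 0.5, 0.1 and 1), other filters and scalings, a replicate block, cell scores as covariates, and leaving out piglets. Some genes are not reported here, and no sequence is shown. Neighbouring genes were read from a RefSeq table of another source than the files, without coordinates.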

Additional observations from a re-analysis of the deposited data

Results flagged for a closer look

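In 4 of the 31 genes 1 control piglet lay far from the other 9 in CPM, by Dixon's criterion for a group of 10. For normally distributed values chance gives such a gap in about 1 in 20 groups. Whether the CPM values were so distributed was not tested. The share was 12.9% of the 31 and 10.9% of all 13127 genes tested, of whose 1425 gaps 745 were set by control 8 and 257 by control 5. In control 8 the level of IDI1 was 182.2 CPM, and the next control piglet had 114.5 CPM. TM7SF2 was 28.33 CPM in control 8, with 14.84 CPM in the next, and HSD17B7 was 49.1 CPM in control 8, with 24.12 CPM in the next. NPC1 was 66.91 CPM in control 5, with 40.26 CPM in the next. Both piglets were among the 3 with few enterocyte transcripts. The starch group, with 11 piglets, was not examined in this way.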

How the results depend on the processing

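No gene among the 31 passed the adjusted threshold by diet under any of the 34 alternatives run, and at an unadjusted p under 0.05 the 3 genes TM7SF2, MSMO1 and INSIG1 did in at least 1. The sign of the log2 fold change held in all alternatives for 15 genes and changed in at least 1 for 16; the cause was not tested. DESeq2 without the count filter and edgeR without a filter gave MYLIP 0.00. Limma-voom gave HSD17B7 0.07, DHCR7 0.10, MYLIP 0.00, ABCG5 0.12 and ABCG8 0.18. On the log2 FPKM scale with pseudocounts of 0.5, 0.1 and 1, ABCG5 had 0.23, 0.20 and 0.21, ABCG8 0.38, 0.45 and 0.33, SOAT2 0.10, 0.11 and 0.09, and with each pseudocount SREBF2 had -0.01 and INSIG2 0.01. The enterocyte score as a covariate gave HSD17B7 0.05, ABCG5 0.09, ABCG8 0.23 and SOAT2 0.04. The smooth muscle score gave EBP -0.05, MYLIP 0.01, STARD4 0.09, ABCG5 0.58, ABCG8 0.62 and SOAT2 0.40. Without control 5, control 8 and starch 3, HSD17B7 had 0.15, DHCR7 0.01 and NPC1L1 -0.06.

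With each piglet left out in turn, the log2 fold changes that changed sign spanned EBP -0.05 to 0.18, DHCR7 -0.19 to 0.04, ABCG5 -0.18 to 0.15, ABCG8 -0.21 to 0.16, SOAT2 -0.22 to 0.07, MYLIP -0.07 to 0.09, STARD4 -0.27 to 0.08, TMEM97 -0.06 to 0.01, MVK -0.01 to 0.23, NPC1L1 -0.03 to 0.23, HSD17B7 -0.08 to 0.22, INSIG2 -0.15 to 0.01, NPC1 -0.01 to 0.26, IDI1 -0.04 to 0.39 and NPC2 -0.08 to 0.22. Those that kept their sign spanned ACAT2 0.04 to 0.33, HMGCS1 0.07 to 0.38, MVD 0.06 to 0.27, FDPS 0.03 to 0.26, FDFT1 0.05 to 0.20, SQLE 0.07 to 0.31, LSS 0.14 to 0.25, CYP51A1 0.03 to 0.26, TM7SF2 0.07 to 0.49, MSMO1 0.20 to 0.49, NSDHL -0.19 to -0.03, SC5D 0.18 to 0.33, SREBF2 0.01 to 0.07, SCAP -0.10 to -0.04, INSIG1 0.22 to 0.53 and ABCA1 -0.57 to -0.24.

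Titles of the 2 diets share numbers, but same-numbered piglets did not deviate together: over 10 pairs r of the deviations was -0.337 to 0.485, 4 were over 0.1, and 0 piglets correlated best with their own number. With the replicate number as a block on 20 piglets, 0 genes passed and the median of the 31 was 0.13, with EBP 0.00, MYLIP 0.05, STARD4 0.13, ABCG5 0.16 and ABCG8 0.19.

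The count of genes tied to HMGCS1, 5 in 21 piglets, was 12 on the FPKM scale (9 positive, beside 15.2% of all genes, and 3 negative, beside 7.98%). It was 9 without control 4 and starch 4 (4 positive, beside 10.1%, and 5 negative, beside 13.7%). The 5 negative ones were NPC1L1, SOAT2, ABCG5, ABCG8 and INSIG2, in a set that still held control 5, control 8 and starch 3. In the 18 piglets their r with HMGCS1 was -0.18, -0.36, -0.16, -0.16 and -0.13 in that order, none past the adjusted threshold. The count was 2 in the 18 piglets (both positive, beside 0.0762%). It was 0 with starch 4 also left out (chosen after seeing the data) and within each diet. The count tied to the enterocyte score, 4 (all positive, beside 3.73% of all genes), was 2 without starch 4 and control 6 (both positive, beside 0.807%). On the FPKM scale it was 3 (all positive, beside 1.12%), where NPC1L1 had an adjusted permutation p of 0.0639. Within each diet it was 0, as it was for all genes. Each gene's diet effect could lie anywhere inside the confidence interval given for it. The smallest effect detectable with these numbers of piglets was not computed.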
